A study of Mus musculus with 12 samples.

Results

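The response to curdlan was followed in dendritic cells cultured from the bone marrow of wild-type (WT) C57BL/6 mice, in 6 of the 12 RNA-seq libraries of the series. The 6 were chosen by their labels alone: 3 libraries from unstimulated cells (numbered 1, 2 and 4 in the library names) and 3 from cells given curdlan for 3 hours (also 1, 2 and 4). The labels state the dose as 200 mg/ml, and that unit could not be verified. The remaining 6 libraries were from C57BL/6 mice labelled Vav1/2/3-/- with and without curdlan. They entered the filter on low counts, the scaling factors, the estimate of spread and 1 comparison at the end. Minimums on mean level were also taken over all 12 libraries. Genes almost without counts in the WT libraries, such as Tgfa, could therefore be among those tested. The labels do not say whether libraries of a group came from separate mice or separate cultures, so p-values measure the spread between these libraries.

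Curdlan is a particulate beta-1,3-glucan, a model for the glucans of fungal cell walls. It is recognised by Dectin-1, the C-type lectin receptor encoded by Clec7a, which signals through the kinase Syk. Downstream, phospholipase C-gamma, Vav-family exchange factors and the CARD9-BCL10-MALT1 complex lead to NF-kB, to MAP kinases and, through calcium and calcineurin, to NFAT. Dendritic cells activated in this way are known to release cytokines that direct T cells, among them IL-23, IL-6 and IL-1 beta.

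The WT libraries held 46496689 to 61217861 counts. Markers of the labelled cell type differed widely in level. Itgax, which encodes CD11c, lay at 1448, 1591 and 1424 CPM (the count relative to library size, scaled by TMM factors) in unstimulated libraries 1, 2 and 4. Cd74, the invariant chain of MHC class II, lay at 6043, 6064 and 5966 CPM. Flt3 and Cd209a, also dendritic cell markers, lay at 2.25, 2.17 and 1.93 CPM and at 4.75, 3.75 and 4.01 CPM. The macrophage marker Csf1r lay at 797, 881 and 810 CPM, so these levels do not settle the cell type. The summed CPM of 20 dendritic cell markers ran from 10946 to 11149 without and from 11275 to 11720 with curdlan, and 6 of them rose and 2 fell. For 16 neutrophil markers the sums were 5455 to 6805 CPM and 4766 to 5550 CPM, ranges that overlapped. Of the 16, 1 fell, Csf3r, and the median was -0.28. Scaling by library size alone gave 4 falls among these 16, and the 6 WT libraries fitted alone with a replicate block gave 12. For 16 macrophage markers they were 2083 to 2190 CPM and 1988 to 2168 CPM. Of 13 mast cell and basophil markers 9 had enough counts to be tested, and their summed CPM was 67.6 to 76.4 without and 81.2 to 107 with curdlan, ranges that did not overlap. Of the 9 only Hdc, which makes histamine, passed, rising by 1.37 (SE 0.17, adjusted p = 0.000141). The median of the 9 was 0.24. It was -0.15 without both libraries numbered 1 and -0.23 in the 6 WT libraries fitted alone with a replicate block. Mcpt2 and Mcpt4, not tested, had no count in any WT library. Of 14 T and NK cell markers 8 were tested and none passed, with sums of 20.6 to 21.8 CPM and 18.5 to 20.3 CPM, and Ncr1 and Gzma had no count. In such bulk samples fewer cells of a type and less RNA per cell cannot be told apart, and the part of these cells in the results below was not tested. Each group was sequenced in a lane of its own (lane 5 unstimulated, lane 7 with curdlan, per the library names), so lane and treatment cannot be told apart.

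Curdlan changed the level of 3759 of the 18981 genes tested (19.8%), at a Benjamini-Hochberg adjusted p under 0.05 in edgeR's quasi-likelihood test. Of these, 2164 were higher (11.4%) and 1595 lower (8.4%), while the median gene had a log2 fold change of -0.03. Large changes were mostly rises: 557 genes rose at least 2-fold (2.93% of those tested) and 114 fell as far (0.601%). At 4-fold or more there were 154 rises and 16 falls, and at 16-fold or more 22 rises and no fall. The same libraries gave 3430 genes with a replicate block on the numbers 1, 2 and 4 of the WT libraries. The 6 WT libraries fitted alone gave 5198 genes without that block and 7812 with it. Without WT curdlan 4 the count was 2170, with 1454 higher and 716 lower. Scaling by library size alone moved the median gene to -0.17 and made 25.1% of the calls higher, in place of 57.6%, and upper-quartile scaling made it 46.3%, with 1534 higher and 4589 lower in the first case and 1963 higher and 2275 lower in the second.

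**Figure D1:**
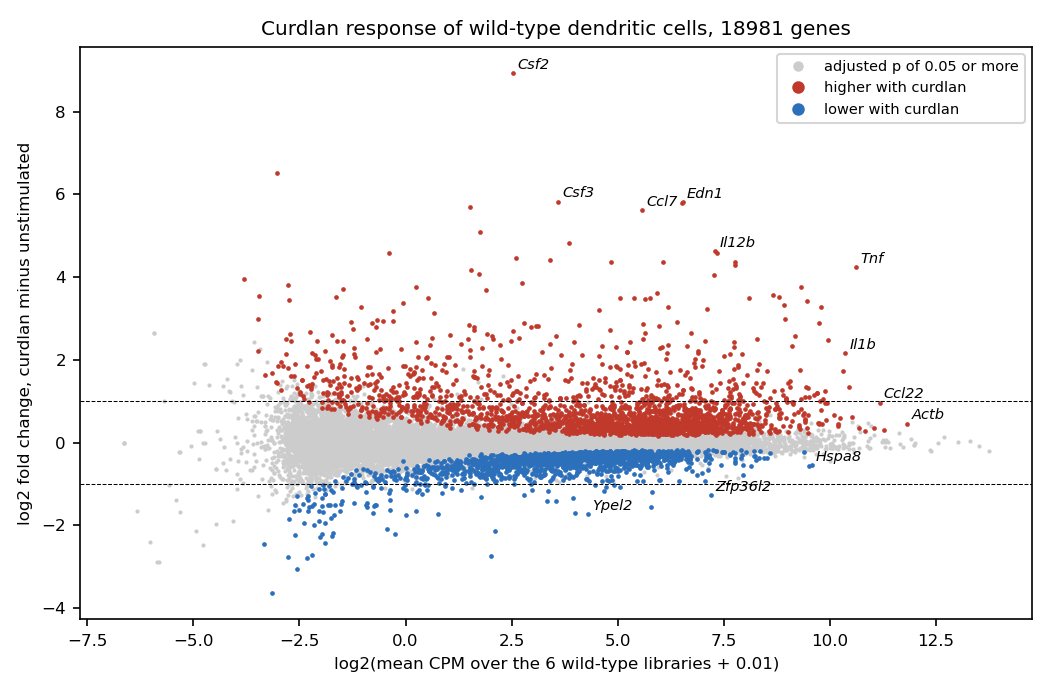
Each point is 1 of 18981 genes: the x axis gives log2 of its mean CPM over the 6 WT libraries plus 0.01, and the y axis its log2 fold change (curdlan minus unstimulated); red and blue mark the 2164 higher and 1595 lower genes and dashed lines a 2-fold change. Rises extend past 4 on the log2 scale, up to Csf2 at 8.93. Ypel2, at -1.73, is the lowest only of the falls named by size. Among all genes tested 16 fell at least 4-fold, 2 of them at least 8-fold.

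The 557 genes that rose at least 2-fold held 2.5% to 2.63% of all counts in unstimulated libraries and 7.04% to 8.5% in curdlan libraries. The 12 largest gains in CPM, those of Tnf, Il1b, Ccl22, Cxcl2, Il1rn, Irg1, Il1a, Plek, Ccl3, Actb, Ccl4 and Ptx3, went from 0.851% to 0.901% of counts to 2.32% to 2.8%. Tnf, the cytokine tumour necrosis factor, had the largest gain, from 159.8, 138 and 178 CPM to 2875, 2580.4 and 3531 CPM in libraries 1, 2 and 4. Per kb of annotated exon its mean level with curdlan was 1828 CPM, that of Ccl4 1802 CPM and that of Ccl3 1698.5 CPM, beside 1578 CPM for Actb, the cytoskeletal actin gene. The 12 largest losses, led by the polyubiquitin gene Ubb (-0.57) and the chaperone Hspa8 (-0.53), were each under 2-fold except for Zfp36l2. By contrast, 7 genes lay under 1 CPM in every unstimulated library and above 5 CPM in every curdlan library, and none did the reverse. They were Csf3, Ereg, Csf2, Atp13a4, Il1f6 (IL-36 alpha), Cyr61 and Lyve1.

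**Figure D2:**
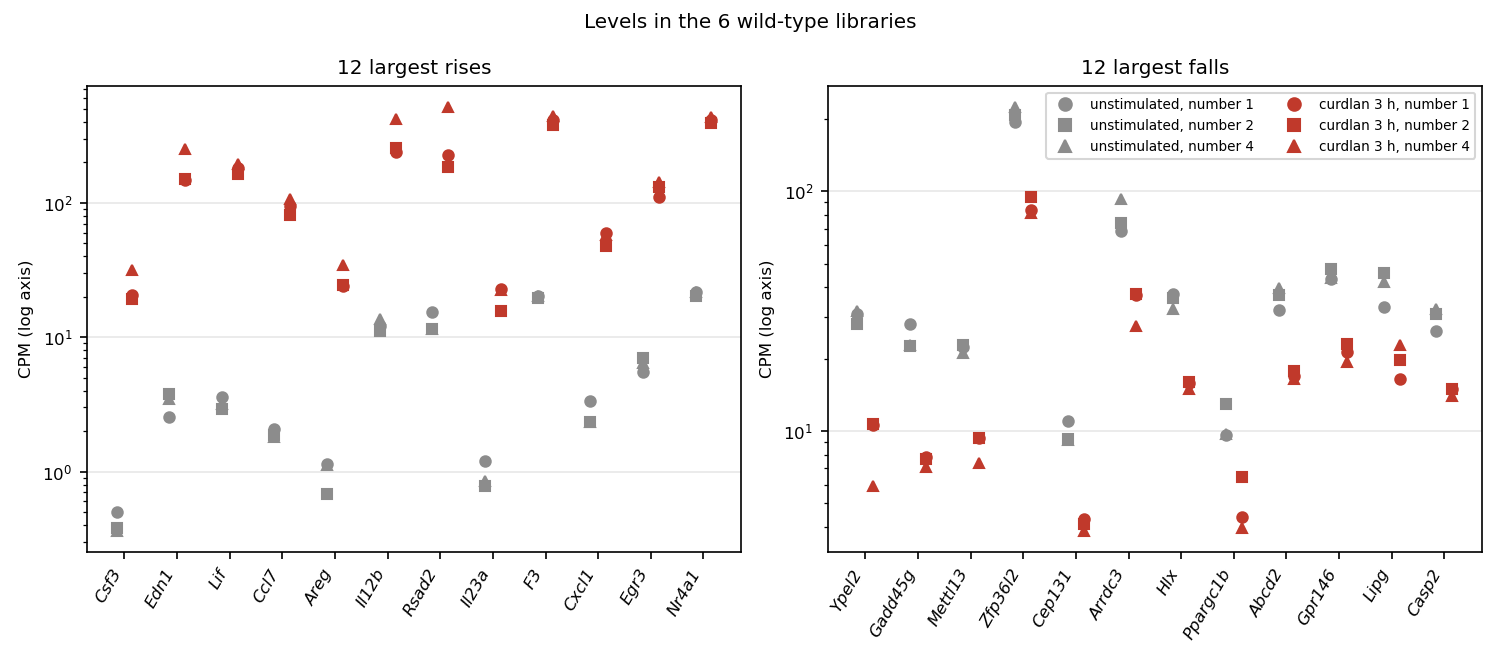
Each point is the CPM (log axis) of a gene in 1 WT library, grey unstimulated and red with curdlan, with the shape giving the library number; the left panel shows the 12 largest rises and the right panel the 12 largest falls among well-expressed genes whose groups did not overlap. The rises range from 4.28 (Nr4a1) to 5.82 (Csf3) on the log2 scale and the falls from -1.02 (Casp2) to -1.73 (Ypel2).

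Sizes of rises and falls below are log2 fold changes with their standard errors (SE). List counts stand beside 11.4% of all genes tested that rose and 8.4% that fell. At a mean log2 CPM of at least 0 these shares were 13.7% and 10.3%. Several lists lay near them on 1 or both sides, and no list was tested as a set. Up to 6 members of each list are named by size of change, and further members, among them those that did not pass, were added for their role after their values were seen. Of 27 interleukins and other cytokines tested, 18 rose at least 2-fold, none fell, and the median log2 fold change was 2.01 beside -0.03 for all genes. Csf2 and Csf3, which act on granulocytes and macrophages, had the largest changes of the list. Csf2, which encodes GM-CSF, lay at 0.0428, 0.0167 and 0 CPM in unstimulated libraries 1, 2 and 4 and at 7.97, 7.53 and 19.2 CPM with curdlan. In counts that was 3, 1 and 0 against 408, 363 and 1001, so the fitted fold change depends on the prior count, and the groups did not overlap. Csf3, which encodes G-CSF, went from 0.499, 0.383 and 0.363 to 20.6, 19.2 and 31.8 CPM (log2 fold change 5.82, SE 0.44, adjusted p = 3.38e-06). Csf1, the macrophage growth factor, rose by 3.32 (SE 0.26, adjusted p = 4.66e-06) from 88.5, 85.99 and 92.4 to 858, 811 and 995 CPM. For Csf2 and Csf3, curdlan library 4 was the highest of the 3.

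IL-12 and IL-23 share 1 subunit, and each has a chain of its own. Il12b, the p40 chain shared by both, measured 12.1, 11.03 and 13.5 CPM without and 237, 255 and 418 CPM with curdlan (log2 fold change 4.63, SE 0.27, adjusted p = 5.5e-07). Il23a, the p19 chain of IL-23, rose from 1.199, 0.783 and 0.846 to 22.9, 15.7 and 22.3 CPM (log2 fold change 4.41, SE 0.27, adjusted p = 7.39e-07). Il12a, the p35 chain of IL-12, had a log2 fold change of 1.15 that did not pass (adjusted p = 0.146). Of the IL-6 family, Lif rose from 3.61, 2.899 and 3.16 to 182, 164 and 193 CPM (log2 fold change 5.80, SE 0.55, adjusted p = 2.06e-05). Il6 rose from 13.02, 10.8 and 16.2 to 54.1, 48.5 and 80.4 CPM (log2 fold change 2.20, SE 0.32, adjusted p = 0.000487), and Osm and Clcf1 by 2.01 and 1.85. Il11, also of this family, did not pass, at 0.05 (adjusted p = 0.919).

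Among IL-1 family members, agonists and the natural antagonist rose together. Il1b, already abundant at 425, 479 and 552 CPM, reached 1977, 2055 and 2463 CPM (log2 fold change 2.16, SE 0.32, adjusted p = 0.000578). Il1a rose by 2.89 (SE 0.48, adjusted p = 0.00126) and Il1rn, the secreted receptor antagonist, by 2.47 (SE 0.26, adjusted p = 3.95e-05). Il33 and Il18 did not pass, at 0.48 and 0.12. Ifnb1, the gene of interferon beta, went from 0.114, 0.09995 and 0.104 to 5.27, 3.82 and 7.63 CPM (log2 fold change 5.68, SE 0.47, adjusted p = 6.67e-06), with every curdlan library above every unstimulated one. The cytokine Il10, which restrains inflammation, rose by 1.85 (SE 0.32, adjusted p = 0.00172), and Tslp by 2.97 (SE 0.41, adjusted p = 0.000317). Il15 had the lowest value of the list, -0.46, and did not pass.

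Of 24 chemokine genes 14 rose and none fell, with a median of 1.30. The neutrophil attractant Cxcl1 went from 3.33, 2.33 and 2.35 to 59.6, 47.9 and 58.03 CPM (log2 fold change 4.36, SE 0.52, adjusted p = 0.000122), and its relative Cxcl2 from 187, 145 and 165 to 1631, 1367 and 1814 CPM. The monocyte attractants Ccl7, Ccl2 and Ccl12, which are neighbours on chromosome 11, rose by 5.61, 3.24 and 2.54. Ccl3 and Ccl4, which encode macrophage inflammatory proteins, rose by 3.43 and 3.77. The CXCR3 ligands Cxcl10, Cxcl11 and Cxcl9 rose by 2.91, 2.37 and 1.51. Cxcl10 measured 126, 94.9 and 223 CPM in the curdlan libraries, highest in number 4. The call of Cxcl9 was lost without WT curdlan 4 (log2 fold change 1.02, adjusted p = 0.183), without any 1 of the 3 unstimulated libraries (0.0598, 0.11 and 0.0901 for 1, 2 and 4) and without both libraries numbered 1 (0.0652). Ccl22, a ligand of CCR4, went from 1571, 1631 and 1498 to 2918, 3028 and 3242 CPM (log2 fold change 0.97, SE 0.11, adjusted p = 0.000108), while Ccl17, the other CCR4 ligand, had a value of 0.05 (adjusted p = 0.754).

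Ligands of the TNF superfamily, which act on T cells and other lymphocytes, rose in 8 of 13 cases, with none lower and a median of 1.26. Tnfsf15 (TL1A), a costimulator of T cells, went from 66.4, 71.2 and 78.3 to 649.5, 645 and 1178 CPM (log2 fold change 3.52, SE 0.23, adjusted p = 1.55e-06). Tnfsf18, the ligand of GITR, rose from 0.428, 0.283 and 0.19 to 4.37, 3.98 and 8.18 CPM. Tnfsf9 (4-1BB ligand) rose by 2.43, Tnfsf8 (CD30 ligand) by 1.93, Tnfsf4 (OX40 ligand) by 1.89 and Cd70 by 1.26. Tnfsf13b, which encodes the B cell factor BAFF, and Tnfsf13, which encodes APRIL, did not pass, at 0.26 and -0.05.

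Of 28 growth factor, vasoactive and clotting genes, 17 rose and 1 fell, with a median of 0.79. Edn1, the precursor of the vasoconstrictor endothelin-1, went from 2.55, 3.798 and 3.47 to 147, 151 and 249 CPM (log2 fold change 5.80, SE 0.28, adjusted p = 1.45e-07). F3, which encodes tissue factor, the trigger of the extrinsic clotting pathway, went from 20.3, 19.4 and 20.4 to 413, 380.1 and 443 CPM (log2 fold change 4.36, SE 0.35, adjusted p = 4.83e-06). Thbd, which encodes the anticoagulant thrombomodulin, was the member that fell, from 1.698, 1.85 and 1.47 to 0.781, 0.809 and 0.613 CPM (log2 fold change -1.19, SE 0.22, adjusted p = 0.00242). In all 3 genes the groups did not overlap.

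The plasminogen activator inhibitor gene Serpinb2 rose by 3.61. Plau, the urokinase it inhibits, did not pass, at 0.38, and its receptor Plaur rose by 0.68. Of the ligands of the EGF receptor family 3 rose: Areg by 4.81 (SE 0.38, adjusted p = 5.13e-06), Ereg by 3.86 (SE 0.34, adjusted p = 1.09e-05) and Hbegf by 3.50 (SE 0.36, adjusted p = 3.71e-05). Tgfa, a further such ligand, was almost without counts, at 0.0714, 0 and 0 CPM without and 0, 0 and 0.0192 CPM with curdlan. Its value of -1.67 (SE 2.24, adjusted p = 0.647) did not pass and is not informative. The TGF-beta family ligands Inhba, Bmp2 and Gdf15 rose by 2.98, 2.93 and 3.27. Among 22 extracellular proteases and inhibitors 6 rose and none fell, led by Adamts1 (2.51) and the collagenase Mmp13 (1.84), with a median of 0.34.

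Of 44 cytokine receptor genes 11 rose and 2 fell, each by less than 2-fold, with a median of 0.04. Il7r rose by 0.84 (SE 0.13, adjusted p = 0.00075), the TNF receptor genes Tnfrsf1b and Tnfrsf1a by 0.68 and 0.44, and Il10ra by 0.59. Lifr, the receptor for LIF, fell by 0.76 on the log2 scale (SE 0.09, adjusted p = 0.000109), and Csf3r, the receptor for G-CSF, by 0.43. Without both WT libraries numbered 1, 4 of the 44 rose, and scaling by library size alone gave 6 higher and 9 lower.

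Of 40 chemoattractant and other G-protein-coupled receptors, 17 rose and 4 fell, with a median of 0.33. The chemerin receptor gene Ccrl2 rose by 2.31 (SE 0.16, adjusted p = 1.85e-06), C5ar1, the receptor for complement C5a, by 1.71 (SE 0.25, adjusted p = 0.000561), and Gpr84 by 1.30. Ccr7, which guides dendritic cells to lymph nodes, rose from 134, 121 and 139 to 279, 272 and 283 CPM (log2 fold change 1.08, SE 0.13, adjusted p = 0.000117). Ccr2, the receptor for Ccl2 and Ccl7, fell from 326, 359 and 375 to 244, 262 and 286 CPM (log2 fold change -0.42, SE 0.08, adjusted p = 0.00241), and P2ry6, a nucleotide receptor, fell by 0.77 on the log2 scale (SE 0.08, adjusted p = 6.67e-05). The receptor for prostaglandin E2 Ptger4 rose by 0.97, and the adenosine receptors Adora2a and Adora2b by 0.87 and 0.58.

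Clec7a, the gene of Dectin-1 itself, did not pass the test. It lay at 746, 767 and 713 CPM without and 829.7, 783 and 675 CPM with curdlan, and the groups overlapped (log2 fold change 0.04, SE 0.11, adjusted p = 0.845). Of 32 pattern recognition and phagocytic receptors 10 rose and none fell, with a median of 0.09. The RNA sensor Ifih1 rose by 2.23 (SE 0.17, adjusted p = 3.47e-06). Cd14, the co-receptor of TLR4, went from 299, 259 and 283 to 775, 722 and 861 CPM (log2 fold change 1.49, SE 0.24, adjusted p = 0.000896), and Tlr2 rose by 0.98 (SE 0.15, adjusted p = 0.000629). The C-type lectin genes Clec4e (Mincle) and Clec5a rose by 1.19 and 0.96, while Clec4n (Dectin-2) had a value of 0.13 and the mannose receptor gene Mrc1 of -0.32, neither of which passed.

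Within the Dectin-1 signalling pathway, 15 of 44 genes rose and 7 fell, with a median of 0.10. Malt1, the paracaspase of the CARD9 complex, went from 545, 611 and 613 to 1218, 1246 and 1238 CPM (log2 fold change 1.07, SE 0.09, adjusted p = 1.24e-05), and Pik3r1, a regulatory subunit of PI 3-kinase, rose by 1.02 (SE 0.09, adjusted p = 9.99e-06). The kinase genes Src and Syk rose by 0.74 and 0.54. Btk, a tyrosine kinase upstream of phospholipase C-gamma, fell by 0.34 on the log2 scale (SE 0.06, adjusted p = 0.00195), while Plcg2 itself did not pass, at -0.06. Without WT curdlan 4 the pathway had 10 rises and 2 falls, and without both libraries numbered 1 it had 7 rises and 2 falls. Scaling by library size alone turned the balance, to 9 rises and 11 falls with a median of -0.036.

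Of 29 NF-kB genes 24 rose and none fell, with a median of 0.63. Nfkbid, a nuclear I-kappa-B protein, went from 47.5, 42.1 and 44.9 to 466, 437 and 603 CPM (log2 fold change 3.49, SE 0.14, adjusted p = 5.88e-08), and its relative Nfkbiz rose by 2.14 (SE 0.14, adjusted p = 1.68e-06). Tnfaip3, the deubiquitinase A20, and its partner Tnip3 rose by 1.44 and 1.21. Each of the 5 subunit genes rose, by 1.10 (Rel), 0.95 (Nfkb1), 0.85 (Nfkb2), 0.63 (Relb) and 0.56 (Rela). Cyld and Map3k14 did not pass, at 0.09 and 0.02.

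Of 27 MAP kinase phosphatases and other feedback genes 16 rose and 3 fell, with a median of 0.64. Dusp2 rose from 4.91, 3.98 and 4.92 to 40.3, 35.4 and 51.2 CPM (log2 fold change 3.20, SE 0.17, adjusted p = 2.21e-07), Dusp1 from 44.2, 40.6 and 38.8 to 213, 211 and 250.3 CPM and Dusp5 from 43.4, 42.2 and 45.3 to 183, 182 and 220.1 CPM. Dusp6 and Dusp7 did not pass, at 0.47 and 0.24. Among regulators of G-protein signalling, Rgs16 and Rgs1 rose by 2.81 and 1.78, and Rgs18 and Rgs14 fell by 0.83 and 0.49 on the log2 scale.

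Immediate-early transcription factors gave the highest share of rises of the 33 lists examined, 27 of 29 with none lower and a median of 1.15. Egr1 went from 18.6, 17.9 and 16.05 to 304, 268 and 303 CPM (log2 fold change 4.06, SE 0.18, adjusted p = 8.58e-08), Egr3 from 5.48, 6.98 and 6.41 to 111, 131 and 143 CPM (log2 fold change 4.35, SE 0.33, adjusted p = 3.28e-06), and Nr4a1, an orphan nuclear receptor, from 21.7, 20.2 and 21.7 to 412, 391 and 437 CPM (log2 fold change 4.28, SE 0.20, adjusted p = 1.26e-07). Its relatives Nr4a3 and Nr4a2 each rose by 2.33. Of the AP-1 subunits, Fosl1, Fosb, Fos, Junb, Fosl2 and Jund rose by 2.28, 1.90, 1.15, 1.09, 0.91 and 0.60, and Jun did not pass, at 0.42. The groups did not overlap for any of Egr1, Egr3 or Nr4a1, and the 3 numbered pairs gave similar changes, at 4.24, 4.28 and 4.32 on the log2 scale for Nr4a1.

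Of 23 calcineurin-NFAT genes 5 rose (21.7%) and 2 fell (8.7%), beside 11.4% and 8.4% of all genes, with a median of 0.05. Scaling by library size alone gave 5 of each. Rcan1, an NFAT target that inhibits calcineurin, went from 11.8, 12.4 and 10.4 to 88.8, 78.8 and 87.02 CPM (log2 fold change 2.88, SE 0.23, adjusted p = 4.83e-06). Nfatc1 rose by 0.97 (SE 0.16, adjusted p = 0.00102) and Nfatc2 fell by 0.72 on the log2 scale (SE 0.14, adjusted p = 0.00258). The calcium channel gene Orai2 rose by 0.79 and its relative Orai1 fell by 0.45. Among 28 Kruppel-like and other zinc finger genes 9 rose and 3 fell, with Hivep3 rising by 2.44 (SE 0.22, adjusted p = 1.51e-05) and Klf4 and Klf11 falling by 0.78 and 0.80 on the log2 scale.

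**Figure D3:**
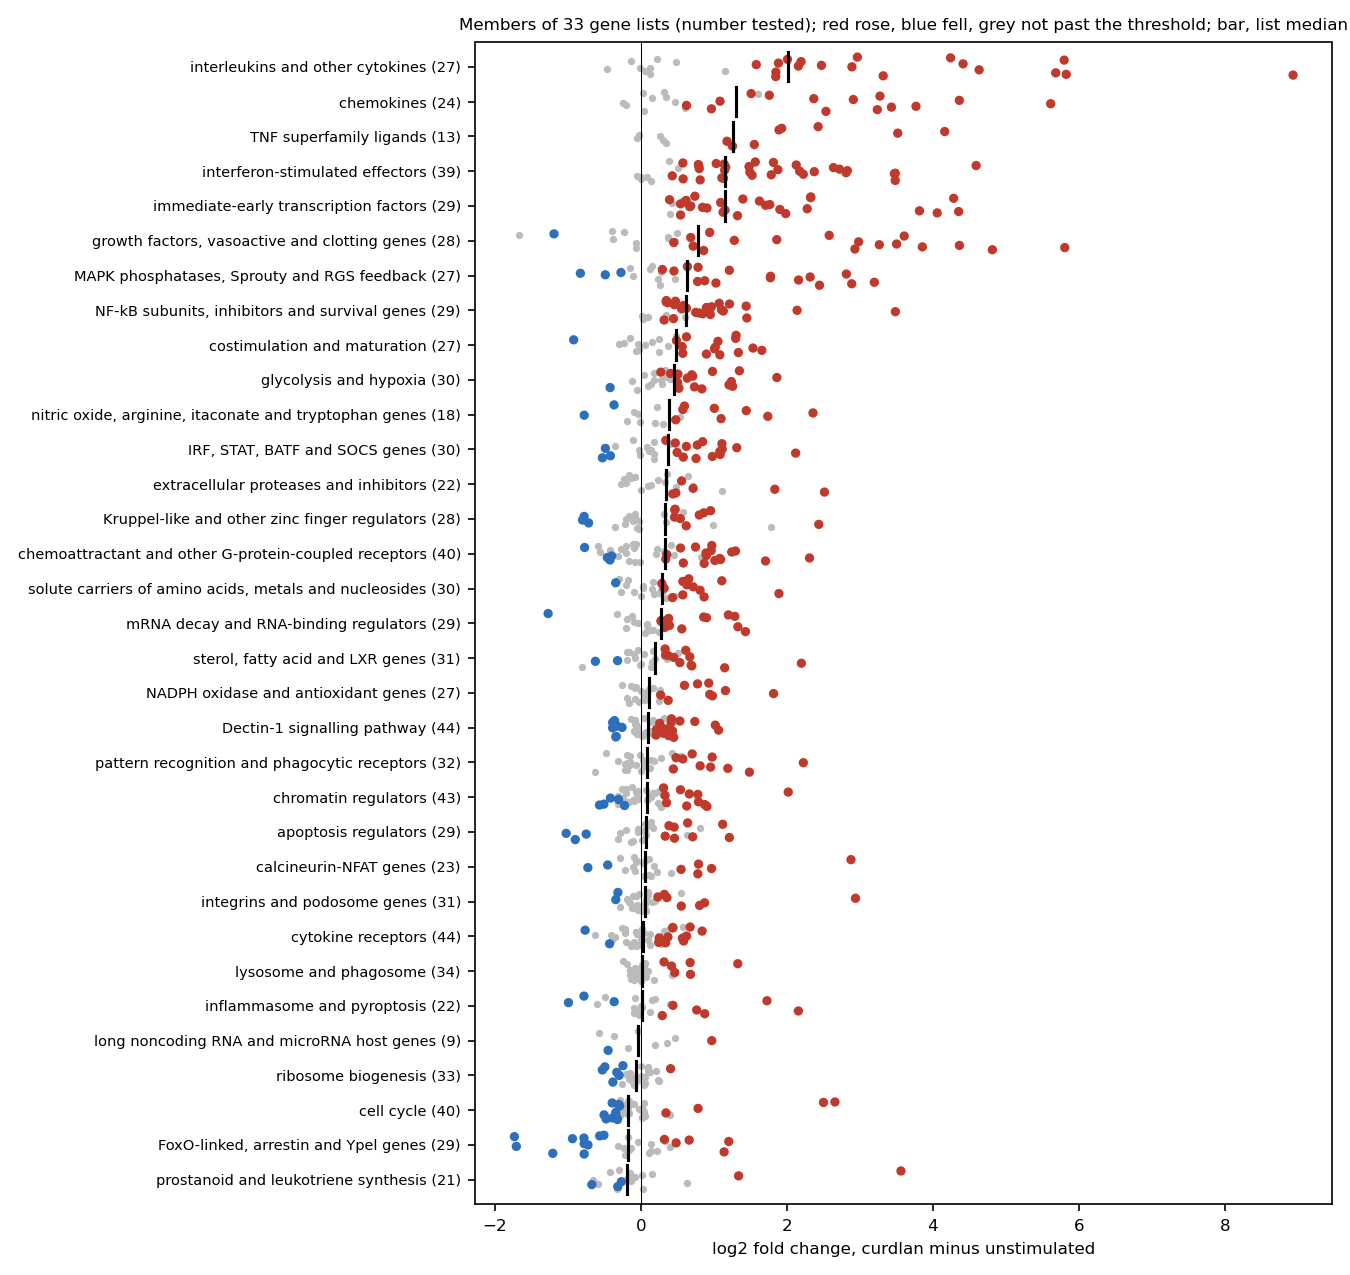
Each point is the log2 fold change (x axis) of 1 tested member of the list named on the y axis, with the number tested in parentheses; red rose, blue fell, grey did not pass, and the black bar is the list median. Medians run from 2.01 for interleukins and other cytokines to -0.19 for prostanoid and leukotriene synthesis.

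Of 39 interferon-stimulated effectors 32 rose, with none lower and a median of 1.16. Rsad2, which encodes the antiviral enzyme viperin, went from 15.4, 11.5 and 11.5 to 228, 186 and 514 CPM (log2 fold change 4.59, SE 0.34, adjusted p = 3.15e-06). Ifit1 measured 67.5, 52.6 and 155 CPM and Isg15, a ubiquitin-like protein, 99.7, 83.8 and 149 CPM with curdlan, against 9.204, 7.81 and 7.72 and 19.9, 12.7 and 14.2 CPM without. In each of these genes curdlan library 4 was the highest. The guanylate-binding protein genes Gbp2 and Gbp7, of the same list, did not pass, at 0.08 and -0.05. Of 30 IRF, STAT, BATF and SOCS genes 15 rose and 3 fell, with a median of 0.38: Irf7, Irf4, Irf9 and Irf1 rose by 2.12, 1.09, 1.08 and 0.98, Socs3 and Socs1, inhibitors of cytokine signalling, by 1.31 and 1.12, and Irf2, a repressor of interferon genes, fell by 0.42 on the log2 scale (SE 0.07, adjusted p = 0.00131).

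The numbered pairs differed in size. The median change of the 557 rises was 1.33, 1.28 and 1.65 in numbers 1, 2 and 4, and 398 of them (71.5%) were largest in number 4. Over all tested members of the interferon list the medians were 0.99, 0.91 and 1.8, for cytokines 1.90, 2.00 and 2.26, and for immediate-early factors 1.22, 1.2 and 1.33. Cmpk2, a nucleotide kinase gene next to Rsad2 on chromosome 12, measured 54.3, 41.3 and 136 CPM in the curdlan libraries and 8.33, 6.43 and 5.87 CPM without, so its change was 2.70, 2.68 and 4.52. Ifnb1 changed by 5.11, 4.79 and 5.74 in the same pairs. Without WT curdlan 4 the interferon list still had 29 rises and no fall, with a median of 0.89.

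**Figure D4:**
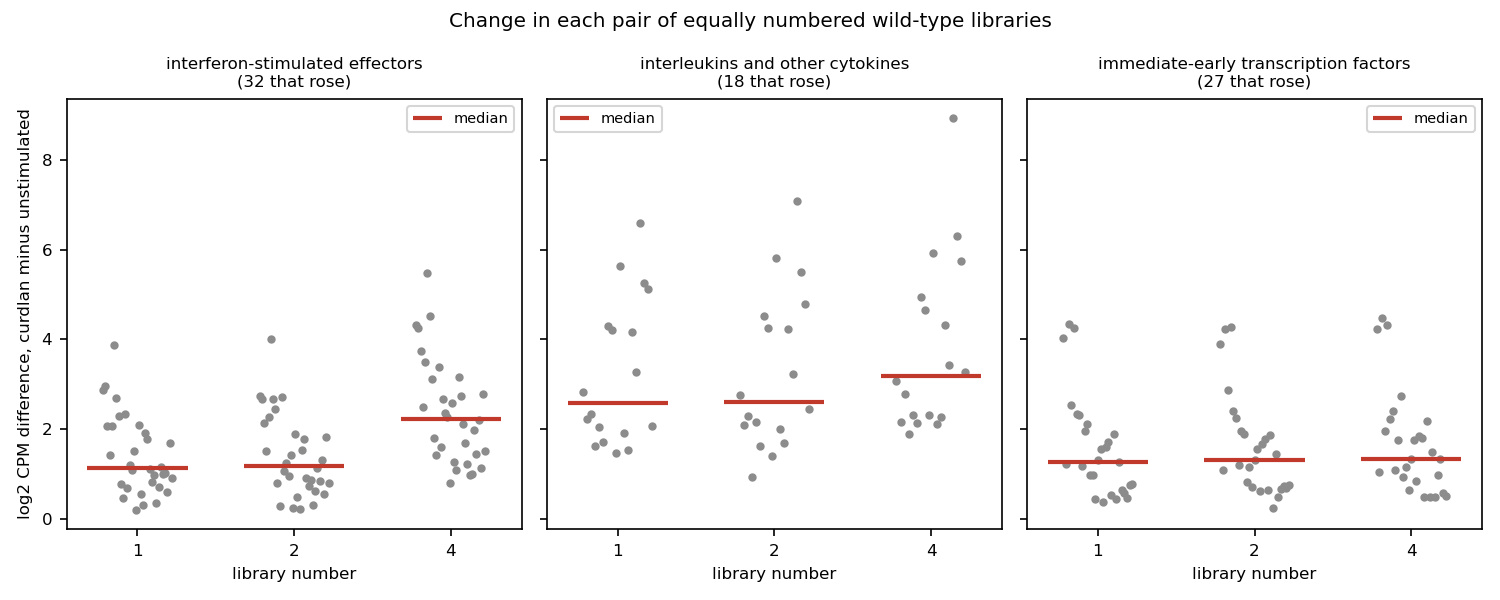
Each grey point is the log2 CPM difference (curdlan minus unstimulated, y axis) of 1 gene that rose, in the pair of WT libraries that share the number on the x axis, and red bars are the medians of those genes. Interferon-stimulated effectors lie higher in number 4 than in 1 and 2, while immediate-early factors lie at similar heights in all 3.

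Number 1 also stood apart at the level of both states. Ctse, which encodes the protease cathepsin E, lay at 5.22 and 5.31 CPM in the unstimulated and curdlan libraries numbered 1 and at 49.5 to 55.4 CPM in numbers 2 and 4. The complement gene C1qa lay at 87.7 and 84.1 CPM in number 1 and at 43.4 to 52.3 CPM in the others. Neither gene passed the test for curdlan (-0.1 and -0.05). These genes were chosen after their values were seen.

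Several responding genes were neighbours. In 13 runs of at least 3 adjacent tested genes every gene rose at least 2-fold, 56 genes in all, and no such run fell. Neighbours in the count did not always have separate spans: in 8 of the runs 22 genes overlap another of the same run in the annotation. Some of these overlaps are on the same strand and some on opposite strands, which the kit does not mark. Overlap was taken from gene start to gene end and not from exons. How far their reads can be told apart was not tested. With overlapping genes counted as 1 locus, 6 of the 13 runs held at least 3 loci and 3 a single locus, among them those at Slc2a1 and 1700016P03Rik. The longest had 14 genes, from Gm4955 to Olfr433 on chromosome 1, and held the PYHIN family of DNA-binding proteins. Within it AI607873 went from 32.9 to 166 CPM as group means (log2 fold change 2.33, SE 0.21, adjusted p = 1.49e-05), Ifi203 from 47.1 to 152 CPM (1.70) and Ifi205 from 8.90 to 38.3 CPM (2.10), while Ifi202b had no count in unstimulated libraries and a mean of 0.223 CPM with curdlan. Members of this family share sequence, and reads could be split among them, so single values are uncertain. On chromosome 19 a run of 6 held Ifit2, Ifit3, Ifit1bl1, Ifit3b, Ifit1bl2 and Ifit1, with rises from 1.75 (Ifit1bl2) to 3.48 (Ifit2). Ifit3 and Ifit3b are near-identical copies. A run of 4 Schlafen genes, 1 of them a pseudogene, on chromosome 11 included Slfn2, which went from 302 to 761 CPM (log2 fold change 1.33, SE 0.10, adjusted p = 2.38e-06), and further runs held the immunity-related GTPase genes Igtp and Irgm2, Oasl1 and Oasl2, and Ccl2, Ccl7 and Ccl12.

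**Figure D5:**
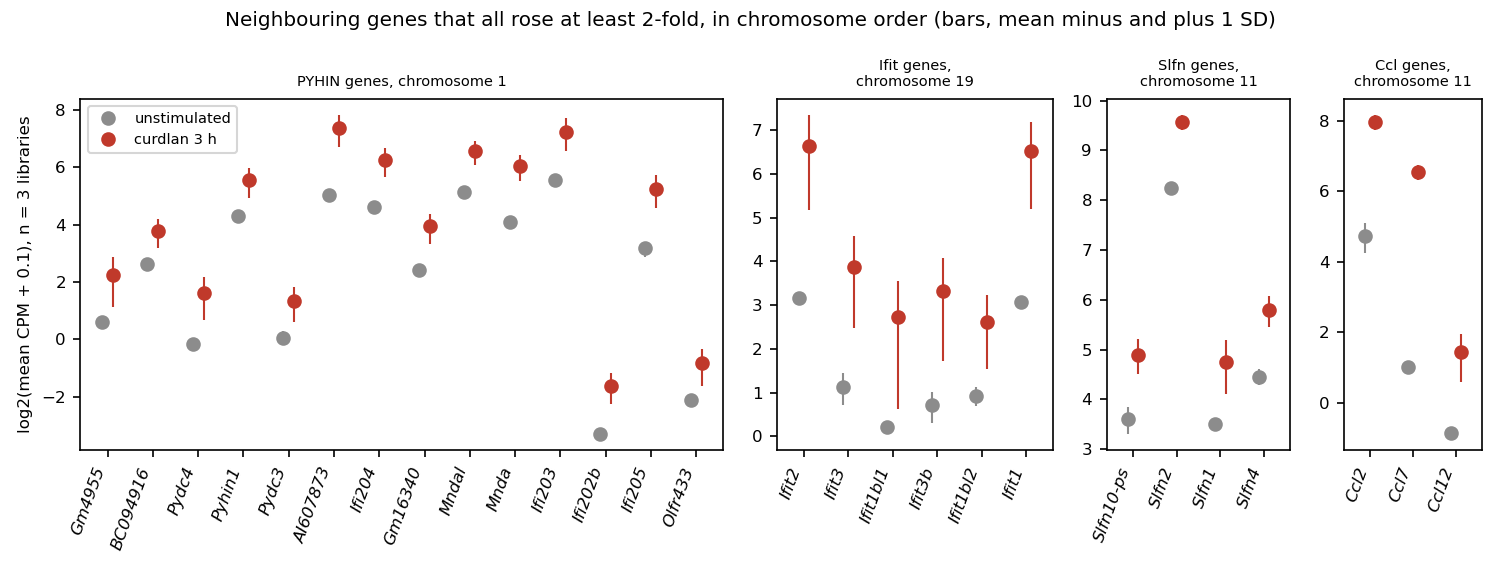
Points are log2(mean CPM + 0.1) of the 3 unstimulated (grey) and 3 curdlan (red) WT libraries, with bars from the mean minus to the mean plus 1 SD, for genes in chromosome order in 4 of the 13 runs. The runs were chosen for rises of at least 2-fold, so every gene lies higher with curdlan. Log2 fold changes ran from 1.18 (BC094916) to 5.61 (Ccl7) among genes with counts in both groups.

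Of 27 maturation and costimulation genes 14 rose and 1 fell, with a median of 0.49. Cd83 went from 110.0, 102 and 114 to 339.6, 299.6 and 305 CPM (log2 fold change 1.54, SE 0.12, adjusted p = 5.07e-06). The T cell costimulators Cd86 and Cd80 rose by 1.02 and 1.01 and Cd40 by 1.34 (SE 0.33, adjusted p = 0.0143). The call of Cd40 was lost without WT curdlan 4 (1.19, adjusted p = 0.0635), without WT unstimulated 2 or 4 (0.0598 and 0.0573) and without both libraries numbered 1 (0.0604). March1, the ubiquitin ligase that removes MHC class II and CD86 from the surface, was the member that fell, from 111, 117 and 115 to 63.7, 63.3 and 54.01 CPM (log2 fold change -0.92, SE 0.10, adjusted p = 5.53e-05). The MHC class II genes H2-Aa, H2-Ab1 and H2-Eb1 did not pass, at 0.05, -0.03 and 0.15. Ciita, their transcriptional activator, rose by 0.57. The call of Ciita was lost when any single WT library but WT curdlan 1 was left out (adjusted p = 0.0601 to 0.147).

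Ptgs2 (cyclooxygenase 2) went from 55.9, 62.1 and 71.7 to 714, 710.3 and 815 CPM (log2 fold change 3.56, SE 0.19, adjusted p = 2.39e-07) and Ptges, which makes prostaglandin E2, rose by 1.34 (SE 0.25, adjusted p = 0.00233). The other 19 genes of prostanoid and leukotriene synthesis held no rise and 3 falls, and the median of all 21 was -0.19. Among the falls were Alox5ap (-0.32) and Lta4h (-0.27) of the leukotriene branch. The call of Lta4h was lost when any single WT library but WT unstimulated 1 was left out (adjusted p = 0.0505 to 0.081). Nos2, the inducible nitric oxide synthase, went from 24.8, 23.4 and 23.6 to 122, 109 and 138 CPM (log2 fold change 2.36, SE 0.25, adjusted p = 4.95e-05) and Gch1, which makes its cofactor, rose by 1.10, while Arg1 did not pass, at 0.30. Odc1, the first enzyme of polyamine synthesis, rose by 1.44 and Srm, spermidine synthase, fell by 0.37 on the log2 scale.

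Of 30 glycolysis and hypoxia genes 16 rose and 1 fell, with a median of 0.45. The glucose transporter gene Slc2a1 went from 396, 393 and 380.1 to 989, 930.2 and 1062 CPM (log2 fold change 1.35, SE 0.15, adjusted p = 8.13e-05), hexokinase 2 (Hk2) rose by 1.24 and the lactate exporter Slc16a3 by 0.98. Later enzymes of the pathway, Aldoa, Gapdh, Eno1 and Ldha, did not pass, at -0.05, 0.15, 0.1 and 0.18. The phosphate carrier Slc20a1 rose by 1.89 (SE 0.24, adjusted p = 0.000186) and the cystine carrier Slc7a11 by 1.11 (SE 0.09, adjusted p = 9.32e-06), with 12 of 30 solute carriers higher and 1 lower. Ch25h, which makes 25-hydroxycholesterol, rose by 2.20 (SE 0.30, adjusted p = 0.000296) and the cholesterol exporter Abca1 by 1.15 (SE 0.15, adjusted p = 0.00025). Its relative Abcg1 did not pass, at -0.80. In the list of 31 sterol, fatty acid and LXR genes 11 rose and 2 fell, and 5 rose without both libraries numbered 1.

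Among 27 genes of the NADPH oxidase and of antioxidant defence, 9 rose and none fell, among the former Nfe2l2 (NRF2) by 1.16 (SE 0.08, adjusted p = 1.77e-06), Hmox1 by 0.98 and Txnrd1 by 0.93. The phagocyte NADPH oxidase genes Cybb, Cyba, Ncf1 and Ncf4 had values from -0.03 to 0.25 that did not pass. Of 22 inflammasome genes 6 rose and 3 fell (5 and 5 with library size alone). Nlrp3 went from 162, 174 and 173 to 529, 514 and 643 CPM (log2 fold change 1.73, SE 0.10, adjusted p = 6.21e-07), while Casp1, Pycard and Gsdmd did not pass, at -0.02, -0.49 and -0.1. Of 31 integrin and podosome genes 7 rose (22.6%) and 2 fell (6.45%), or 4 and 6 with library size alone. Of 34 lysosome and phagosome genes 6 rose (17.6%), and the medians of these lists were 0.05 and 0.02.

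The list of FoxO-linked, arrestin and Ypel genes held 10 falls and 5 rises among 29 genes, with a median of -0.18. Ypel2 went from 30.8, 28.1 and 31.6 to 10.7, 10.7 and 5.901 CPM (log2 fold change -1.73, SE 0.21, adjusted p = 0.000127), with curdlan library 4 lowest. Gadd45g, a stress-response gene, went from 27.97, 22.6 and 22.99 to 7.85, 7.63 and 7.11 CPM (log2 fold change -1.70, SE 0.18, adjusted p = 4.38e-05), and Arrdc3, an alpha-arrestin, from 68.7, 73.7 and 92.7 to 37, 37.5 and 27.5 CPM (log2 fold change -1.2, SE 0.18, adjusted p = 0.000686). Txnip, a glucose-regulated alpha-arrestin, fell by 0.78 on the log2 scale (SE 0.13, adjusted p = 0.00133) and Tsc22d3 (GILZ), a glucocorticoid-induced gene, by 0.94. Trib1 and Cited2, of the same list, rose by 1.2 and 1.14. In each of the falls named here the groups did not overlap.

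Of 40 cell cycle genes 9 fell (22.5%) and 4 rose (10%), beside 8.4% and 11.4% of all genes, with a median of -0.18. The rises were Plk3 and Plk2, kinases of the stress response, at 2.66 and 2.5, the inhibitor Cdkn1a (p21) at 0.78 and Ccng2 at 0.34. Ccnd3 and Birc5 fell by 0.50 and 0.47 on the log2 scale, and Mki67 did not pass, at -0.09. Without WT curdlan 4 the list had 4 rises and 3 falls, and without both libraries numbered 1 it had 3 of each. Scaling by library size alone gave 3 rises and 23 falls. Of 33 ribosome biogenesis genes 1 rose (3.03%) and 6 fell (18.2%), with a median of -0.07. The falls numbered 3 without WT curdlan 4, 3 without both libraries numbered 1, and 15 with library size alone. Among 29 apoptosis genes 8 rose (27.6%) and 3 fell (10.3%), or 7 and 7 with library size alone. The survival genes Bcl2l1 and Mcl1 rose by 1.21 and 0.46. The death-promoting genes Bbc3 (PUMA) and Bmf fell by 0.90 and 0.75, and Bcl2l11 (BIM) rose by 0.71. Casp2 fell by 1.02 on the log2 scale (SE 0.09, adjusted p = 9.78e-06).

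Of 29 regulators of mRNA decay 15 rose and 1 fell, and 2 members of the same family moved in opposite directions. Zfp36 (tristetraprolin), which binds AU-rich elements of cytokine mRNAs, went from 195, 167 and 192 to 467, 398 and 409 CPM (log2 fold change 1.2, SE 0.11, adjusted p = 1.24e-05). Zfp36l2 fell from 194, 208 and 224 to 83.9, 94.7 and 81.5 CPM (log2 fold change -1.27, SE 0.11, adjusted p = 1.38e-05), and Zfp36l1 did not pass, at -0.32. The ribonuclease genes Zc3h12c and Zc3h12a (Regnase-1) rose by 1.29 and 0.86. Of 43 chromatin regulators 11 rose (25.6%) and 5 fell (11.6%), beside 11.4% and 8.4% of all genes. Kdm6b, a histone demethylase gene, went from 39.9, 46.1 and 47.9 to 155, 168 and 219.6 CPM (log2 fold change 2.02, SE 0.16, adjusted p = 4.17e-06). Its span holds that of its antisense partner Kdm6bos, and the kit does not mark strand, so their reads may not be told apart. Kdm6a, a relative of Kdm6b, did not pass, at -0.20. Without WT unstimulated 4 none of the 43 fell, scaling by library size alone turned the balance to 8 rises and 12 falls, and the 6 WT libraries alone with a replicate block gave 18 and 13.

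Of 334 annotated long noncoding genes whose mean log2 CPM reached 0, 49 rose (14.7%) and 18 fell (5.39%), beside 13.7% and 10.3% of all 14252 genes at that level. Il1bos, antisense to Il1b, rose by 2.79 (SE 0.55, adjusted p = 0.00357). The library kit does not mark strand, so where these genes overlap their reads cannot be told apart. Gm14636 on chromosome X went from 1.099, 1.33 and 1.33 to 5.76, 6.43 and 9.196 CPM (log2 fold change 2.51, SE 0.22, adjusted p = 1.28e-05), and 1810032O08Rik fell from 16.6, 14.3 and 13.3 to 6.35, 5.31 and 4.83 CPM (log2 fold change -1.42, SE 0.13, adjusted p = 1.24e-05). Next to Gm14636 stand the microRNA loci Mir221 and Mir222, and on chromosome 11 Mir212 and Mir132 share the transcript 1700016P03Rik (3.18). Of 104 microRNA loci tested 9 rose (8.65%) and 1 fell (0.962%), shares below the 11.4% and 8.4% of all genes, here as reads from longer precursors, since these libraries do not measure mature microRNAs. Mir221 had 7, 7 and 11 counts unstimulated and 50, 40 and 62 with curdlan (log2 fold change 2.88, SE 0.30, adjusted p = 4.1e-05). Mir132 went from 1, 3 and 4 counts to 14, 13 and 10 (log2 fold change 2.45, SE 0.54, adjusted p = 0.00718), and Mir212 from 2, 3 and 2 to 12, 11 and 11 (log2 fold change 2.51, SE 0.71, adjusted p = 0.0268). The call of Mir212 was lost with the replicate block (adjusted p = 0.0508) and without any 1 WT library (0.058 to 0.0892). Mir222 had 0, 1 and 1 counts without and 6, 4 and 13 with curdlan. The mature sequences (RefSeq, GRCm38.p6) are shown because the 4 loci form 2 pairs with a shared seed, bases 2 to 8, in capitals.
mmu-miR-132-3p: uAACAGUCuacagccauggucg
mmu-miR-212-3p: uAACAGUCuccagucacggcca
mmu-miR-221-3p: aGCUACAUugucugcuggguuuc
mmu-miR-222-3p: aGCUACAUcuggcuacugggucu

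The promoters of responding genes were read from RefSeq (GRCm38.p6) as the 250 bases before the start site, for the 8843 of 18981 tested genes with exactly 1 listed window. Each was searched on both strands for kappa B (by its consensus), AP-1 (TGANTCA), CRE (TGACGTCA), EGR (GCGGGGGCG), CArG box (by its consensus), ISRE (GAAANNGAA), the NFAT core (TGGAAA) and TATAAA. The ISRE letters, the interferon-stimulated response element, stood in 6.52% of all windows (95% Wilson interval 6.03 to 7.06) and in 22 of 81 genes that rose at least 4-fold, 27.2% (18.7 to 37.7). In the interferon list it stood in 8 of 20 rising genes, 40.0%, and in 3 of 9 rising chemokine genes, 33.3%. Kappa B letters stood in 4.53% of all windows and 12.3% of the 81 (6.85 to 21.3), in 6 of 17 rising NF-kB genes, in as many of 17 immediate-early genes, in 4 of 9 chemokine genes, in 3 of 10 cytokine genes and in 1 of 20 of the interferon list. For AP-1 the shares were 4.52% and 12.3% (6.85 to 21.3), and for TATAAA 6.98% and 21% (13.5 to 31.1). For CRE they were 2.66% and 6.17% (2.67 to 13.6), with the share of all at the edge of the interval. For the CArG box they were 1.16% and 2.47% (0.68 to 8.56), and this interval held the share of all. The EGR letters stood in 4.39% of all and 6.17% of the 81 (2.67 to 13.6), an interval that held the share of all. They stood in 5 of 17 rising immediate-early genes, 29.4% (13.3 to 53.1), and in 2 of 17 NF-kB genes. Rising genes of the interferon, cytokine and chemokine lists held them in 0 of 20, 0 of 10 and 0 of 9. The NFAT core stood in 15.2% of all and 19.8% of the 81 (12.5 to 29.7), again an interval that held the share of all. It stood in 6 of 10 rising cytokine genes, beside 1 of 17 immediate-early genes. Among the 36 genes that fell at least 2-fold no motif had an interval that left out the share of all genes. Intervals cover counting error over genes only. Within 100 bases the ISRE share was 2.13% of all and 11.1% of the 81, and within 250 bases it was 14.8% of genes that rose at least 2-fold. A match is a run of letters and not a shown site, and some motifs overlap, as the NFAT core and ISRE letters do in Csf2.

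The windows below, 5′ to 3′ on the gene's strand with matches in capitals, are those of 2 cytokine genes (Csf2 on the minus strand, chr11:54249900-54250149, with the NFAT core and ISRE letters from 201 bases before the start, and Lif on the plus strand, chr11:4257318-4257567, with AP-1 letters from 228 bases before it), an immediate-early gene (Nr4a1, plus strand, chr15:101266596-101266845, with EGR letters from 60 bases before it), an interferon-stimulated gene (Rsad2, minus strand, chr12:26456453-26456702, with ISRE, AP-1 and TATAAA letters) and 1 of the largest falls (Gadd45g, plus strand, chr13:51846425-51846674, with TATAAA letters from 27 bases before it). They are shown as examples of where the letters stood and do not tell the classes of genes apart. Start sites are those of RefSeq and can differ from GENCODE. In GENCODE Csf2, on the minus strand, starts at chr11:54249667, so its window does not reach that start. Nr4a1 starts at chr15:101254269 in GENCODE, so its window lies within that gene's span. Of 3 further windows read, that of Cmpk2, also interferon-stimulated, held none of the motifs, that of Egr4, also an early factor, held ISRE and kappa B letters and no EGR letters, and that of Ypel2, which fell, held EGR letters.
Csf2 promoter: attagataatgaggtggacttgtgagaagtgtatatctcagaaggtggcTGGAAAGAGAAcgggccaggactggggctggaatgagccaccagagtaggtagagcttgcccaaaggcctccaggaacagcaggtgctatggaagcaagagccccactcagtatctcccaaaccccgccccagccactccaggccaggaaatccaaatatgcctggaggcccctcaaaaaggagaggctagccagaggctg
Lif promoter: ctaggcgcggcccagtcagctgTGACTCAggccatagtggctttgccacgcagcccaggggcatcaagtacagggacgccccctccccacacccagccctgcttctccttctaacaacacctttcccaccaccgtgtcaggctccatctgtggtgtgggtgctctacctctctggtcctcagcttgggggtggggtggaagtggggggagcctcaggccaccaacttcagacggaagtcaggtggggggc
Nr4a1 promoter: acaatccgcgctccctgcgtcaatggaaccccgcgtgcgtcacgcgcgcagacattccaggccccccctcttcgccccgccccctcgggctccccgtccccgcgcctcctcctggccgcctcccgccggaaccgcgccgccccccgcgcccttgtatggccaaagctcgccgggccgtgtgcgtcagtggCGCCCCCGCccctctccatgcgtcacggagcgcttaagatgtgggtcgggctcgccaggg
Rsad2 promoter: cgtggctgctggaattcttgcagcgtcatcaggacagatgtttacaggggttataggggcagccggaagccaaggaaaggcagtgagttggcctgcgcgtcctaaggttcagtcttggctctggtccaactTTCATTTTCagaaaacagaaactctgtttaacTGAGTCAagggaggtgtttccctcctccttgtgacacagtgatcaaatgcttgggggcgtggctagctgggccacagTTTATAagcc
Gadd45g promoter: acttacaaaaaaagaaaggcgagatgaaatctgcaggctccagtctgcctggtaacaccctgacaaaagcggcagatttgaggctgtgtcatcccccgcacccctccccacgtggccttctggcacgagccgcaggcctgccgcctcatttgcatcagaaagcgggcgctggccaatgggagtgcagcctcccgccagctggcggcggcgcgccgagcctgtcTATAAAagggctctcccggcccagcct

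The size of the response was last compared with that in the libraries labelled Vav1/2/3-/-. Of the targeted genes, 2 were higher in those libraries: Vav2 lay at 265 to 325 CPM in them and at 65.0 to 72.7 CPM in the WT libraries, and Vav1 at 198 to 330.0 and 131 to 179 CPM. Vav3 lay at 31.5 to 40.0 CPM in them and 21.6 to 28.9 CPM in WT without curdlan, and with curdlan at 22.7 to 32.5 CPM (median 30.3) in them and 28.3 to 36.9 CPM (median 32.6) in WT, ranges that overlapped. Directions between genotypes therefore rest on the labels. In WT cells Vav1 rose from 135, 131 and 133 to 179, 178 and 177 CPM (log2 fold change 0.42, SE 0.10, adjusted p = 0.0127), a call lost (adjusted p = 0.0547) when only library size was scaled for, while the changes of Vav2 (0.04) and Vav3 (0.31) did not pass. That of Vav3 passed when the 6 WT libraries were fitted alone with the replicate block (0.34, adjusted p = 0.000656). The response differed between the genotypes for 989 genes (5.21%), a count that ran from 366 without WT curdlan 2 to 2837 without the library labelled KO curdlan 2, and for 10 of the 24 genes named by size, 7 rises and 3 falls, all of smaller size in the libraries labelled KO. These 24 were chosen for their size in WT, so that direction is in part set by the choice. Rsad2 shows what the levels were: 11.5 to 15.4 CPM and 186 to 514 CPM in WT without and with curdlan, and 328 to 399.9 CPM and 1976 to 2439 CPM in the libraries labelled KO. Edn1, Egr3 and Nr4a1 had differences of 0.17, 0.01 and 0.21 that did not pass.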

How the data were processed

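RNA-seq of bone-marrow-derived dendritic cells gave 12 libraries, 3 in each of 4 groups, grouped by their labels, and the response of the 6 WT libraries is described here. Libraries were made with the Illumina TruSeq v2 kit, per the labels' protocols. The submitters' processing notes name FastQC 0.11.1, TopHat2 2.4.2a, SAMtools 1.2, featureCounts 1.4.6 and DESeq2 1.8.2, with genome build and strand setting not given in the sources used here. Results rest on the authors' deposited table of raw counts for 37991 genes, 33170 of them with a symbol. A deposited table of the authors' normalized values and comparisons was not used for results. Its WT curdlan columns 4, 1 and 2 are identical to the columns 1, 2 and 4 of the count table, whose numbers are used throughout.

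edgeR 4.0.16 (R 4.3.3, limma 3.58.1) was run with TMM factors, a filter on low counts and the quasi-likelihood test on the 4 groups of all 12 libraries. The 18981 genes tested held at least 99.97% of counts, and the threshold was a Benjamini-Hochberg adjusted p of 0.05. All p-values of the text come from this test unless another is named. WT totals ran from 46496689 to 61217861 counts, and replicate libraries differed by more than sampling noise (chi-square per degree of freedom 9.15 to 24.0). Deviations of equally numbered WT libraries from their group means correlated at 0.65, 0.49 and 0.21 (numbers 1, 2 and 4) over 11298 genes, so the numbers were taken to pair the libraries. Unlike-numbered libraries correlated at -0.60 to 0.19, the highest being unstimulated 2 with curdlan 4, close to the value for number 4. The pairing is read from the data and not from the labels. The main test had no term for it, and only the fits named with a replicate block did.

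The members and gene lists were chosen with earlier results of these data known. The genes named by size were the 12 largest rises and falls without overlap between the WT groups, among genes whose mean log2 CPM over all 12 libraries reached 2. Further named genes were up to 6 members of each list by size, the 12 largest gains and losses in CPM, genes that went from under 1 to above 5 CPM, noncoding genes and genes in runs of neighbours. Exon lengths and coordinates came from GENCODE M21 (GRCm38), which matched 32919 identifiers. Promoter and microRNA sequences came from RefSeq (GRCm38.p6). The model was tested on simulated data. Alternatives included DESeq2 1.42.0, other scalings and filters, a replicate block and leaving out each library. For the WT response only WT libraries were left out. For the difference between genotypes those labelled KO were left out as well.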

Additional observations from a re-analysis of the deposited data

Results flagged for a closer look

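Among the 24 genes named by size, the response to curdlan differed between WT and the libraries labelled KO for 10, by edgeR's interaction term with Benjamini-Hochberg adjustment. The differences in log2 fold change, KO minus WT, were -2.23 for Csf3 (SE 0.59, adjusted p = 0.0482), -3.32 for Lif (adjusted p = 0.0166), -2.33 for Ccl7 (0.000608), -3.37 for Il12b (0.00105), -1.98 for Rsad2 (0.0211), -1.54 for Il23a (0.0249) and -2.64 for Cxcl1 (0.0419). For the falls they were 1.36 for Gadd45g (0.0115), 0.85 for Mettl13 (0.0397) and 0.60 for Cep131 (0.0241). All 10 genes were chosen for their size in WT, which is 1 side of the difference. The unstimulated levels differed as well: Il12b lay at 11.03 to 13.5 CPM in WT and at 158 to 219.6 CPM in the libraries labelled KO, Ccl7 at 1.81 to 2.07 and 74.4 to 93.8 CPM, and Gadd45g at 22.6 to 27.97 and 9.30 to 16.9 CPM.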

How the results depend on the processing

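The count of 3759 genes was 6123 with scaling by library size alone and 2003 without both WT libraries numbered 1. With the 6 WT libraries alone it was 5198, and 7812 when a replicate block was added. It ran from 2170 (without WT curdlan 4) to 3122 over the fits without 1 WT library. For the WT response no library labelled KO was left out singly. Rises numbered 4035 with the 6 WT libraries alone and the block and 1336 without number 1 (1454 to 1890 without 1 WT library). Falls numbered 4589 with library size alone, 3777 with that block and 667 without number 1. Without 1 WT library the falls ran from 716 to 1232. They numbered 946 without WT unstimulated 2, 968 without WT unstimulated 4, 1055 without WT curdlan 2 and 716 without WT curdlan 4. Falls of at least 2-fold numbered 210 with library size alone and 71 by DESeq2, in place of 114, while the 557 rises of that size stayed within 1.5 times under every alternative run. The 989 differences between genotypes became 132 without both WT libraries numbered 1 and 2204 by DESeq2, and ran from 366 to 2837 without 1 library. The replicate block in the fit of 12 libraries gave 3430 genes, and the block on the comparison table's numbers, added after seeing the data as was leaving out number 1, gave 4108 in the 6 WT libraries.

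Of 408 values of the 24 genes named by size under these alternatives, 405 kept direction and call, and the 3 others were those of Lipg (-1.03 without number 1, -0.92 without WT unstimulated 2 and -0.91 without WT curdlan 1, adjusted p = 0.0698, 0.0589 and 0.0616). Of 180 further genes named as having risen or fallen, 166 kept the call under every alternative and none reversed. Apart from the genes given beside their results, calls of Birc5, Orai1, Rgs14, Srm and Mir132 were lost without number 1 (adjusted p = 0.0575, 0.0681, 0.0541, 0.0566 and 0.0834), as were those of Ccng2, Jund, Vav1, Ciita, Lta4h and Mir212 (0.117, 0.0525, 0.0844, 0.109, 0.0513 and 0.158). Those of Ccng2, Jund and Vav1 were lost without WT unstimulated 2 (0.0511, 0.0542 and 0.051), that of Jund without WT unstimulated 4 (0.0534), and those of Ccng2 and Ciita with library size alone (0.0662 and 0.0738). The replicate block in the fit of 12 libraries ended 1 call among the further genes, that of Mir212. Of the values that did not pass, Vav2 (0.04) was -0.090 with library size alone. Clec7a (0.04) was -0.0002364 with upper-quartile factors, -0.094 with library size alone and -0.020 without number 1, and ran from -0.026 without WT curdlan 1 to 0.12 without WT curdlan 4. Of 1122 list counts 963 stayed within 1.5 times, and 10 of 33 list medians, all near 0, changed sign under an alternative. Of 190 values of the 10 differences between genotypes, 139 kept the call and 51 lost it, with none reversed. Of 16 promoter shares 11 stayed within the interval. At these depths counting error is small except for genes under about 1 CPM, such as Csf2 in unstimulated cells and the microRNA loci.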

Other observations

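Nr1d1, which encodes the clock repressor REV-ERB alpha, fell further than any gene named above. In libraries 1, 2 and 4 it went from 6.96, 6.36 and 7.74 CPM to 1.35, 0.996 and 0.824 CPM with curdlan, and edgeR gave -2.73 (SE 0.30, adjusted p = 5.88e-05), with p adjusted by Benjamini-Hochberg. Tfap4, a helix-loop-helix transcription factor gene, went from 6.49, 6.75 and 7.6 to 1.87, 1.87 and 1.03 CPM (log2 fold change -2.13, SE 0.26, adjusted p = 0.000141). Both were left out of the genes named by size by the minimum on mean level over all 12 libraries and were chosen after their values were seen. Of 18 clock and clock-output genes tested, a list drawn up after Nr1d1 was seen, 5 rose and 4 fell, with a median of 0.10. Dbp, an output gene of the clock, fell by 1.10 on the log2 scale (SE 0.28, adjusted p = 0.0148) and Per1 by 0.46, and both calls were lost without WT curdlan 4 (adjusted p = 0.0785 and 0.0676). That of Dbp was also lost without WT unstimulated 1, without WT curdlan 1 and without both (0.0569, 0.0578 and 0.149), and that of Per1 without WT unstimulated 4 (0.0517). Per2 rose from 14.6, 15.6 and 15.1 to 31.8, 30.4 and 31.8 CPM (log2 fold change 1.05, SE 0.15, adjusted p = 0.000472) and Cry1 by 0.65. Nr1d2, the paralog of Nr1d1, did not pass, at -0.40, and Arntl and Clock, the core activators, had 0.22 and 0.35.

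Of the 7 genes that went from under 1 CPM to above 5 CPM, 3 are not cytokine or growth factor genes. Lyve1, a hyaluronan receptor known from lymphatic endothelium, went from 0.271, 0.416 and 0.432 to 5.66, 5.23 and 7.89 CPM (log2 fold change 4.08, SE 0.38, adjusted p = 1.84e-05), Atp13a4, a P5-type ATPase gene, from 0.585, 0.5497 and 0.415 to 8.96, 8.21 and 17.5 CPM, and Cyr61, a matricellular protein gene, from 0.257, 0.117 and 0.19 to 6.42, 5.66 and 7.64 CPM. In each the groups did not overlap.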
